A study of Homo sapiens with 9 samples.

Results

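The mitochondrial carriers are a large family of small membrane proteins, most of them in the inner mitochondrial membrane, and most of their genes are named SLC25A followed by a number. The carrier genes described here were all rows of the deposited tables whose symbol starts with SLC25A, together with *MTCH1* and *MTCH2*, whose proteins are built like carriers but sit in the outer membrane. That rule gave 41 genes, 39 of them SLC25A genes, of the 13017 rows of the sh1-*TUG1* table and the 12953 rows of the sh2-*TUG1* table, and all 41 were in both tables. The rule used the symbol alone and no measured value, so it left out family members with other symbols, such as the uncoupling protein gene *UCP2*. *SLC25A31*, *SLC25A41*, *SLC25A34*, *SLC25A2*, *SLC25A18*, *SLC25A48*, *SLC25A52*, *SLC25A27* and *SLC25A53* were not analysed here.

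RNA-seq was done on HepG2, an established human liver cancer cell line grown in low-glucose medium, and the purpose was to learn which pathways depend on the long non-coding RNA *TUG1*. The cells carried a doxycycline-inducible lentiviral vector with a control short hairpin RNA (sh-Con) or with 1 of 2 hairpins against *TUG1* (sh1-*TUG1* and sh2-*TUG1*), so the vector was shared by all 3 groups and each knockdown line was made with 1 hairpin. Each group had 3 libraries, which the study describes as technical replicates, so the SD and P-values cover the spread between these libraries and may not cover the spread between cultures. *TUG1* itself was not analysed here, and the labels were therefore not checked against its level.

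The 9 libraries held 33054291 to 39393293 counts, of which the 41 carrier genes took 0.3215% to 0.3574%. A single carrier gene held 22 to 36483 counts in a library. The control libraries had the same carrier counts in both tables, so both comparisons with sh-Con rest on the same 3 control libraries and are not independent of each other. All 9 hepatocyte markers checked were in the tables, with *ALB* at a mean of 13510 CPM (counts scaled to library size) in sh-Con, and their summed level was 47540 to 49750 CPM in sh-Con, 50950 to 52600 CPM in sh1-*TUG1* and 53920 to 56530 CPM in sh2-*TUG1*. *ALB* made up most of the rise in that sum (log2(fold change) of 0.45 after sh1-*TUG1* and 0.91 after sh2-*TUG1*), while the markers went both ways. In sh1-*TUG1* 5 of the 9 were called higher and 3 lower, and in sh2-*TUG1* 3 were called higher and 5 lower, namely *TTR* (−0.82), *SERPINA1* (−0.60), *AHSG* (−0.52), *TF* (−0.50) and *APOA1* (−0.35). Of 11 markers of fibroblasts, endothelium and blood cells, 5 were in the tables (*PDGFRB*, *PECAM1*, *VWF*, *CD68* and *LYZ*), with sums of 957.5 to 1169 CPM, 1199 to 1286 CPM and 783.7 to 850.4 CPM in the same order, of which *LYZ* made up most. Single markers were called in opposite directions, with *PDGFRB* (0.65 after sh1-*TUG1*, 1.44 after sh2-*TUG1*) and *VWF* (1.40 and 1.65) higher and *CD68* lower in both lines (−0.86 and −1.61). The part of these marker levels in the carrier results was not tested.

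A carrier binds its substrate on one side of the inner membrane, changes shape and releases it on the other, usually in exchange for a second substrate. In this way ADP, phosphate, citrate, malate, amino acids, acylcarnitines, cofactors and iron cross a membrane that is otherwise closed to them. The liver depends on carriers for the urea cycle, for fatty acid oxidation and for moving reducing equivalents from the cytosol into mitochondria. Most carriers are made in the cytosol and enter through the TOM pore, small TIM chaperones and the TIM22 insertase.

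The promoters of 5 carrier genes are shown first. *SLC25A15* and *SLC25A47* are among the 4 carriers called lower by more than 1.5-fold in sh2-*TUG1* cells. The other 3 had the largest called rises there (*SLC25A42*, *SLC25A20* and *SLC25A36*). Each sequence runs 5′ to 3′ from 250 bases before to 50 bases after a RefSeq start on GRCh38.p14 and is 300 bases long. *SLC25A15* lies at chr13:40789361-40789660 (plus strand), *SLC25A47* at chr14:100323089-100323388 (plus strand), *SLC25A42* at chr19:19063744-19064043 (plus strand), *SLC25A20* at chr3:48898833-48899132 (minus strand) and *SLC25A36* at chr3:140941586-140941885 (plus strand). Capitals mark a GC box (GGGCGG, the core of SP1 sites), a CCAAT box (CCAAT, bound by NF-Y) or an E-box (CACGTG), each read on both strands.
SLC25A15 promoter: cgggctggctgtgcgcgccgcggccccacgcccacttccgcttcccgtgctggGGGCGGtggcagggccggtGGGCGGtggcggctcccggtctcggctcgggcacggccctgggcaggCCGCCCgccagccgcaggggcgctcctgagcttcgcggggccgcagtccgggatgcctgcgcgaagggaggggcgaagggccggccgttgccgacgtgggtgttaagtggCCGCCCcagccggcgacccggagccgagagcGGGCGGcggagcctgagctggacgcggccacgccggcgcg
SLC25A47 promoter: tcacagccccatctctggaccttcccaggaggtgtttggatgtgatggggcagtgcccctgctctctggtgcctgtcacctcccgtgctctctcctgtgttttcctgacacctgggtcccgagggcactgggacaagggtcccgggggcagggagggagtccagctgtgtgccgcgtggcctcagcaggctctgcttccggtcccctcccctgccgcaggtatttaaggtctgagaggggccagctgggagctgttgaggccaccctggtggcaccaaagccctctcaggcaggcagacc
SLC25A42 promoter: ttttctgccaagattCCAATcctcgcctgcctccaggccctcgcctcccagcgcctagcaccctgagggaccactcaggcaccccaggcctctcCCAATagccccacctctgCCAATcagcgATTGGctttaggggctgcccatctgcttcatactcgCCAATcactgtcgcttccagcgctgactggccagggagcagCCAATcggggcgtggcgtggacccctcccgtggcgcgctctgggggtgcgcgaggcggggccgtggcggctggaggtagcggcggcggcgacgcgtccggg
SLC25A20 promoter: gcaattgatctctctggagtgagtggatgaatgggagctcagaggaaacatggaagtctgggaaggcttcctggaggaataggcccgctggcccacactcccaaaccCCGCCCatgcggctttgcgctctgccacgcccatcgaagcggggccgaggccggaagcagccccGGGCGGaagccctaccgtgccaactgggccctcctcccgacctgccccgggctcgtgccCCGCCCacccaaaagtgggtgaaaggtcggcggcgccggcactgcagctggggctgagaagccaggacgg
SLC25A36 promoter: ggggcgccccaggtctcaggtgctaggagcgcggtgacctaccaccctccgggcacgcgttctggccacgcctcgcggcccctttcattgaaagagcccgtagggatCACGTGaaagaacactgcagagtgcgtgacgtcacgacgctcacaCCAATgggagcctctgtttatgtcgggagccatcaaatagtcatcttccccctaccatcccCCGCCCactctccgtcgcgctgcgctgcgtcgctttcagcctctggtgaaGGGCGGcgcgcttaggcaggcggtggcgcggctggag
The *SLC25A47* window held none of the motifs searched, the *SLC25A15* and *SLC25A20* windows held GC boxes and no CCAAT box, and the *SLC25A42* window held CCAAT boxes and no GC box. *SLC25A10* and *SLC25A21*, which also fell by more than 1.5-fold, are not shown. Their windows each held a CCAAT box, that of *SLC25A10* GC boxes too, so the windows of the falling genes had no motif pattern in common.

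A window was found for 35 of the 41 carrier genes, taking for each gene the RefSeq start that most GENCODE starts supported. Some windows held no GENCODE start, among them those of *SLC25A6*, *SLC25A21*, *SLC25A23*, *SLC25A28* and *SLC25A43*. For these the window with the lowest coordinate was taken, without such support. GGGCGG was in 71.4% of these windows and in 44.9% of all 34943 promoter windows of the same length. CCAAT was in 51.4% and 34.6%, CACGTG in 25.7% and 7.23%, the NRF1 core GCATGCGC in 2.86% and 3.02%, and the HNF4 motif CAAAGTCCA in 0% and 0.383%, again for carrier genes and for all windows. None of these motifs contains another, CACGTG reads the same on both strands, and the table of all windows holds more than 1 start for some genes and genes not in the count tables. The carrier windows and all windows were not matched for GC content, which was not measured over all windows. A match is a run of letters and no evidence of binding.

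The study asked whether *TUG1* acts through miR-122-5p, a microRNA that is abundant in liver, and for that reason the carriers were searched for its seed match. The seed, bases 2 to 8, is in capitals in the mature RNA, and the 7 matching bases are in capitals in each stretch of 30 bases from the 3′ UTR exons, written 5′ to 3′ on the strand of the gene.
hsa-miR-122-5p: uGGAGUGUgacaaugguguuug
SLC25A29 site: aactgaggcagACACTCCagcccctttctg
SLC25A6 site: ccatgggtgagACACTCCagtactgagacc
These sites lie on the minus strand of GRCh38, at chr14:100291968-100291974 in *SLC25A29* and at chrX:1386342-1386348 in *SLC25A6*. The match was in 3 of the 41 carrier genes (7.32%) and in 1107 of 11880 genes of the tables with an annotated 3′ UTR (9.32%). The values of *SLC25A29* and *SLC25A6* are given below.

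To compare levels between genes, CPM were divided by the length of the gene's merged exons in kilobases. On this scale *SLC25A6*, the ubiquitous ADP/ATP carrier, was the highest in sh-Con with 391.6 ± 40.4 CPM per kb (SD, n = 3), or 34.87% of the summed level of the 41 genes. *SLC25A5*, the ADP/ATP carrier of dividing cells, followed with 227.3 ± 3.65 CPM per kb and 20.24% of the sum. The citrate carrier *SLC25A1*, which exports citrate for fatty acid synthesis, was at 73.5 ± 1.39 CPM per kb, and the glutathione carrier *SLC25A39* at 53.9 ± 2.34 CPM per kb. On this scale the library ranges of these 4 genes did not overlap with each other or with that of the next gene. The order depends on the length used. The merged exons of *SLC25A3* span 8896 bases, while its transcript with the longest coding part has 1678. In CPM not divided by length *SLC25A3* stood at 414.6 in sh-Con, above *SLC25A5* with 340.9, *SLC25A39* with 190.2 and *SLC25A1* with 154. *MTCH1* (47.3 ± 2.24), the phosphate carrier *SLC25A3* (46.6 ± 3.45) and *MTCH2* (43.5 ± 2.18 CPM per kb) overlapped with their neighbours among these 3 and were not separated. Among the aspartate/glutamate carriers the liver form *SLC25A13* (citrin) stood at 29.5 ± 1.20 CPM per kb and *SLC25A12* (aralar) at 2.27 ± 0.0851 CPM per kb. The lowest was *SLC25A45* with 0.444 ± 0.0215 CPM per kb. Of the 40 pairs of neighbours in the order, 24 had overlapping ranges. *SLC25A6* lies in the pseudoautosomal region of X, and the heart and muscle ADP/ATP carrier *SLC25A4* was in the 20th place with 7.42 ± 0.234 CPM per kb. Per kilobase of merged exons, *SLC25A6*, *SLC25A5* and *SLC25A1* held the first 3 places in both knockdown lines too.

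**Figure D1:**
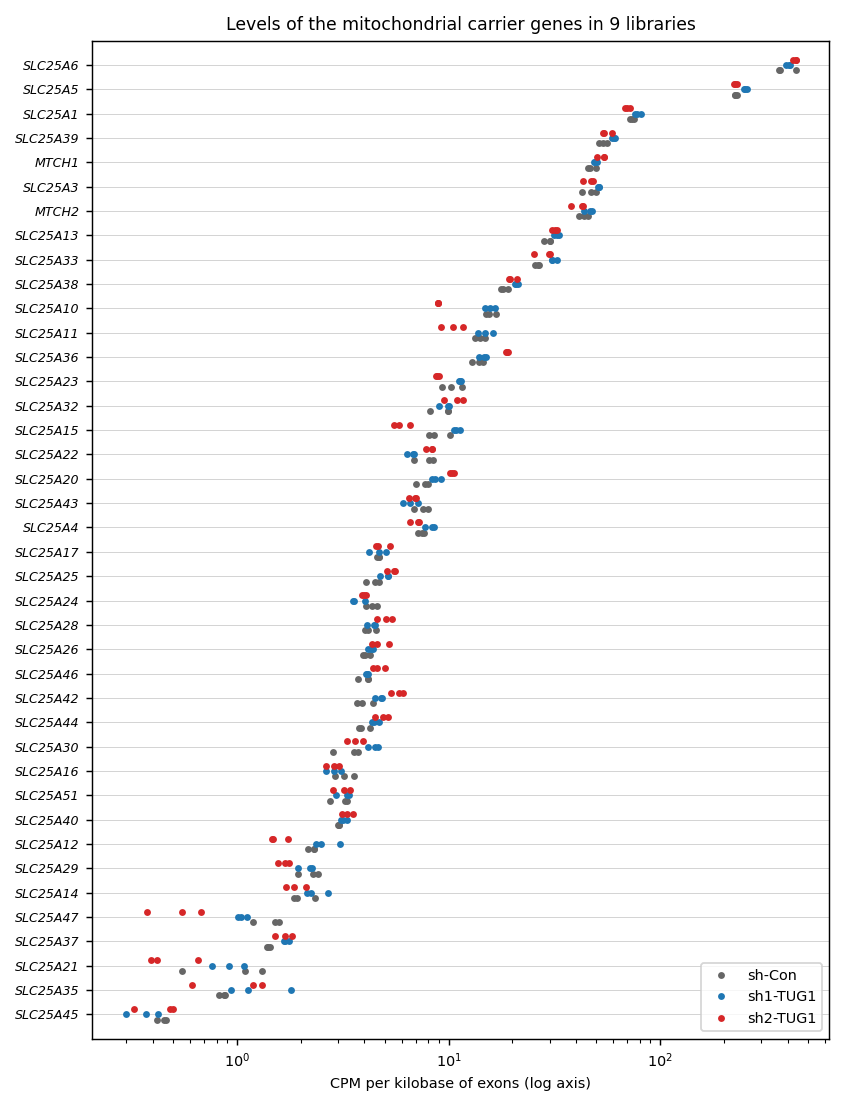
Each point is 1 library of sh-Con (grey), sh1-*TUG1* (blue) or sh2-*TUG1* (red), and the x axis gives the level in CPM per kilobase of exons on a log axis for 40 genes ordered by their mean in sh-Con. *SLC25A6* and *SLC25A5* lie furthest right in all 9 libraries, and the red points of *SLC25A47*, *SLC25A10* and *SLC25A15* lie left of their grey points.

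The first question was whether the carriers changed in sh1-*TUG1* cells. A gene was called when its adjusted P was under 0.05, and a DEG also had a fold change over 1.5. Against sh-Con, 7 carrier genes (17.1%) were higher, 0 were lower and 34 were not called, and 0 were DEGs. Among the 7 were *SLC25A5*, *SLC25A38*, *SLC25A33*, *SLC25A37*, *SLC25A39* and *SLC25A30*, and the 7 rises were 0.15 to 0.39 on the log2 scale. Over all 13017 genes tested, 12.5% were called higher, 12.3% were called lower and 4.96% were DEGs, 2.44% higher and 2.52% lower. In bulk RNA, fewer cells that express a gene and less RNA per cell cannot be told apart. The median log2(fold change) was 0.09 over the carriers and 0.0027 over all genes. In 21 carriers the sh1-*TUG1* libraries lay wholly on one side of the control libraries, 19 above and 2 below, and among all genes 41.5% did so in either direction. By an unadjusted p under 0.05, 16 carriers were higher, 2 were lower and 0 passed the fold limit. The share of all genes at that threshold was not counted, so these counts cannot be set against genes in general. DESeq2 also called 7 higher, 0 lower and 0 DEGs, but not the same 7 genes. *SLC25A37* lost its call (adjusted P = 0.0552) and *SLC25A15* gained one (adjusted P = 0.0402).

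*SLC25A33* carries pyrimidine nucleotides. It measured 98.2, 102 and 104 CPM in the sh-Con libraries and 119, 119 and 125 CPM in the sh1-*TUG1* libraries. All sh1-*TUG1* values were above all control values, the log2(fold change) was 0.26 ± 0.05 (SE), and the adjusted P was 0.00398. Of the 7 calls, only that of *SLC25A33* passed the threshold under all 13 alternatives, which changed a setting or left out a library. Of its 50-base windows 20.7% also occur in other genes, so its reads may be shared. The fellow pyrimidine carrier *SLC25A36* had a log2(fold change) of 0.08 and was not called (adjusted P = 0.341).

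*SLC25A30*, a relative of the uncoupling proteins known as the kidney mitochondrial carrier, measured 19.3, 25.3 and 24.2 CPM in the control libraries and 30.6, 28.3 and 31.5 CPM after sh1-*TUG1*. The groups did not overlap, and the difference of 0.39 ± 0.10 was the largest called rise in this line (adjusted P = 0.0181). Without sh1-*TUG1* replicate 3 the adjusted P was 0.0691, and without sh1-*TUG1* replicate 1 it was 0.0606. *SLC25A14* (UCP5), the other relative of the uncoupling proteins, was not called, with a log2(fold change) of 0.21 (adjusted P = 0.344).

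The ADP/ATP carriers exchange cytosolic ADP for the ATP made in the matrix. *SLC25A5* measured 338, 338 and 347 CPM in sh-Con, 388, 377 and 374 in sh1-*TUG1* and 346, 340 and 336 CPM in sh2-*TUG1*. It was higher in sh1-*TUG1* only (0.15 ± 0.04, adjusted P = 0.0175), with a log2(fold change) of −0.0038 in sh2-*TUG1* (adjusted P = 0.95), and the difference between the knockdown lines was itself called (−0.16 ± 0.04, adjusted P = 0.00423). *SLC25A6*, with 1 miR-122-5p seed match, measured 948, 801 and 792 CPM in sh-Con, 885, 878 and 852 in sh1-*TUG1* and 947, 923 and 945 CPM in sh2-*TUG1*. Its groups overlapped in both comparisons with sh-Con, where the log2(fold change) was 0.04 (adjusted P = 0.695) and 0.15 (adjusted P = 0.102). Both log2(fold change) values were larger without sh-Con replicate 1, the control library at 948 CPM. *SLC25A6* was then called higher in both knockdown lines, by 0.12 with sh1-*TUG1* (adjusted P = 0.00904) and by 0.23 with sh2-*TUG1* (adjusted P = 7.99e-04).

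*SLC25A4* measured 36.9, 36.3 and 34.7 CPM in sh-Con, 41.2, 37.6 and 40.3 in sh1-*TUG1* and 34.7, 35.2 and 31.9 CPM in sh2-*TUG1*. Neither line was called against sh-Con (0.14, adjusted P = 0.103, and −0.09, adjusted P = 0.285), and the 2 lines differed from each other by −0.23 ± 0.06 (adjusted P = 0.00852). The phosphate carrier *SLC25A3*, which supplies phosphate for ATP synthesis and also transports copper, measured 381, 421 and 442 CPM in sh-Con, 456, 454 and 456 in sh1-*TUG1* and 428, 419 and 384 CPM in sh2-*TUG1*. It was not called in sh1-*TUG1* (0.13, adjusted P = 0.103) or sh2-*TUG1* (−0.02, adjusted P = 0.847), and the sh2-*TUG1* libraries were below the sh1-*TUG1* libraries (−0.15 ± 0.06, adjusted P = 0.0475), a call that passed in 8 of 15 alternatives.

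Called rises in sh1-*TUG1* were also found in the glycine carrier *SLC25A38*, which feeds heme synthesis (0.20 ± 0.05, adjusted P = 0.0216), in the glutathione carrier *SLC25A39* (0.16 ± 0.04, adjusted P = 0.0253) and in *SLC25A37*, mitoferrin 1, which imports iron (0.27 ± 0.08, adjusted P = 0.0381). None of these 3 was called in sh2-*TUG1*, where the log2(fold change) was 0.13, 0.04 and 0.25 with adjusted P of 0.107, 0.553 and 0.0633, nor did any of them differ between the lines at the threshold. The second mitoferrin *SLC25A28* (0.03, adjusted P = 0.875) and the second glutathione carrier *SLC25A40* (0.09, adjusted P = 0.446) were not called in sh1-*TUG1*. The largest uncalled difference was in *SLC25A35*, a carrier of unsettled substrate, with 3.39, 3.43 and 3.19 CPM in the control libraries and 3.63, 6.98 and 4.38 CPM after sh1-*TUG1* (0.58 ± 0.24, adjusted P = 0.103). The sh1-*TUG1* libraries lay above the control libraries but were spread widely. *RANGRF*, which covers 33.2% of the *SLC25A35* exon bases on the other strand, had a log2(fold change) of 0.49 (adjusted P = 0.00103), and without stated use of strand in counting the reads of the pair cannot be told apart.

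In sh2-*TUG1* cells the carriers spread further, with an SD of 0.394 over the 41 log2(fold change) values against 0.191 in sh1-*TUG1*. Against sh-Con, 8 carrier genes were higher, 8 were lower and 25 were not called, and 4 were DEGs, all of them lower: *SLC25A47*, *SLC25A21*, *SLC25A10* and *SLC25A15*. Over all 12953 genes tested, 21.6% were called higher, 21.9% were called lower and 13.3% were DEGs, 4.35% higher and 8.97% lower, so DEGs in general were more often lower and the carriers were not called more often than genes in general. The median was 0.05 over the carriers and −0.0048 over all genes. In 22 carriers the sh2-*TUG1* libraries did not overlap with sh-Con, 14 above and 8 below, and among all genes 54.4% did not overlap in either direction. DESeq2 gave the same counts of 8, 8 and 4, and 11 of the 16 calls passed the threshold under all 13 alternatives.

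**Figure D2:**
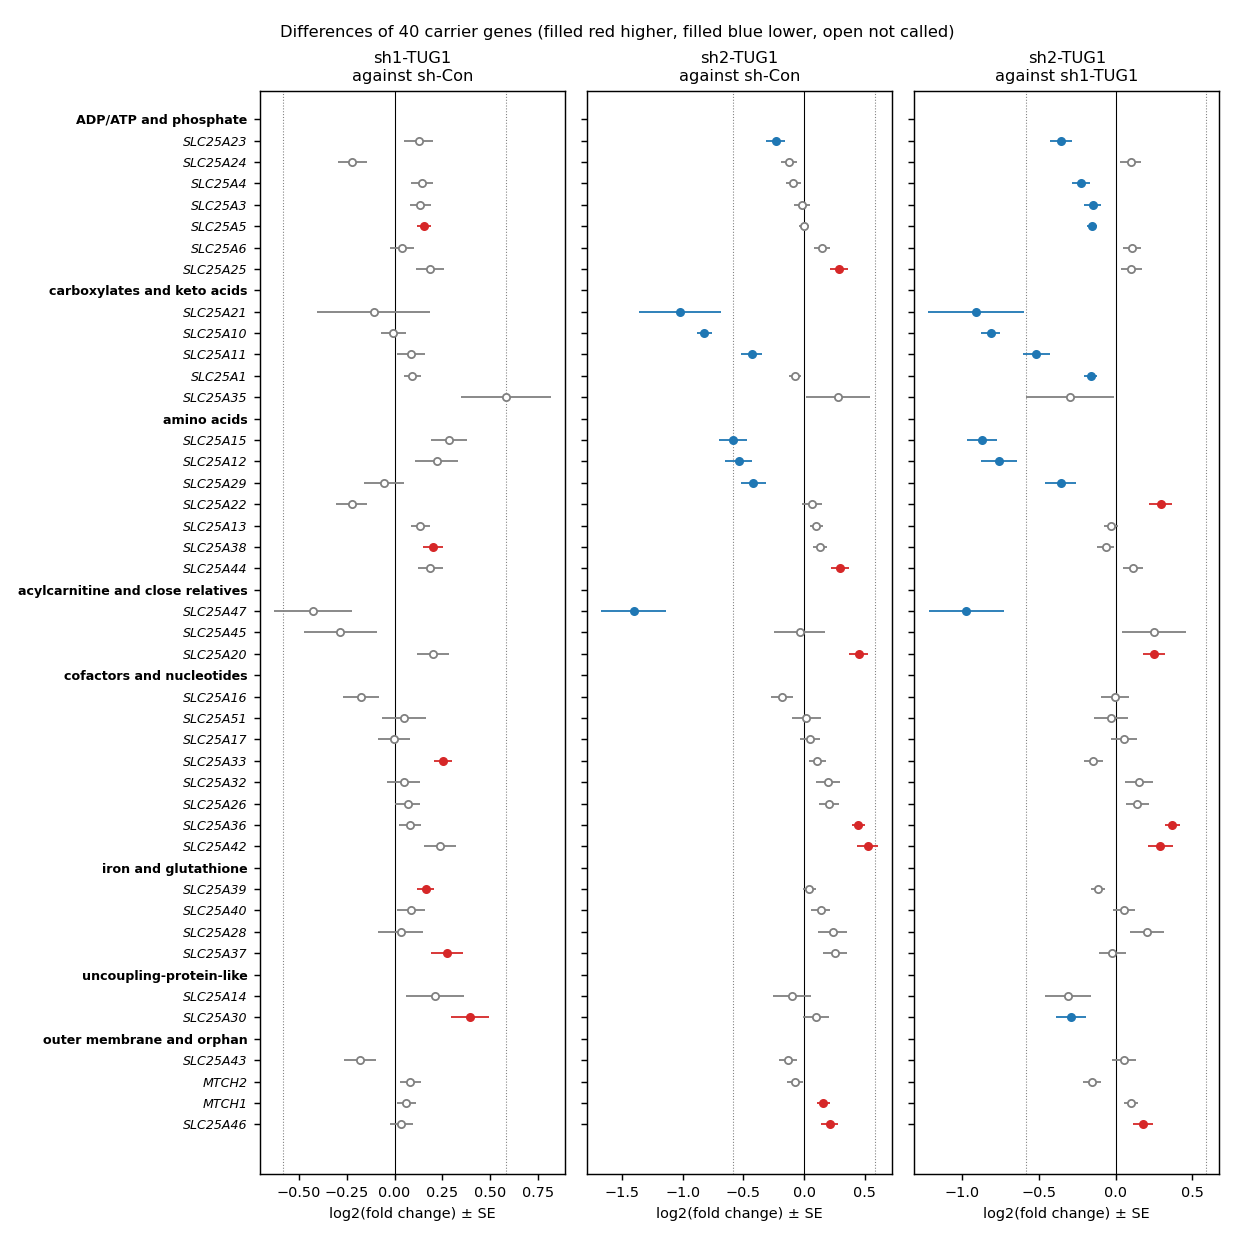
For 40 genes grouped by substrate the x axes give log2(fold change) with SE in the 3 comparisons, filled red where called higher, filled blue where called lower and open where not called, and dotted lines mark a fold change of 1.5. In sh1-*TUG1* against sh-Con all filled points are red, and in sh2-*TUG1* 4 blue points lie beyond the dotted line.

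The carriers of carboxylates and keto acids held 3 falls among 5 genes in sh2-*TUG1* cells, 2 of them DEGs, with a median of −0.43, where 21.9% of all genes were called lower. A class this small is described here and was not tested. The dicarboxylate carrier *SLC25A10*, which exchanges malate and succinate for phosphate, measured 40.6, 39.3 and 44.0 CPM in sh-Con, 39.0, 43.6 and 40.9 in sh1-*TUG1* and 23.3, 23.5 and 23.5 CPM in sh2-*TUG1*. The sh2-*TUG1* libraries lay below all others by far more than the spread within any group. The difference was −0.82 ± 0.06 in sh2-*TUG1* (adjusted P = 1.16e-05), a change of −43.4%, and −0.0066 ± 0.07 in sh1-*TUG1* (adjusted P = 0.955). *SLC25A10* shares 46.6% of its exon bases on the same strand with the annotated gene *AC139530.2*, and 56.3% of its 50-base windows occur in that gene too, which was not analysed here. Its counts are therefore uncertain as to which of the 2 genes the reads came from.

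*SLC25A11* exchanges 2-oxoglutarate for malate and, with the aspartate/glutamate carriers, forms the malate-aspartate shuttle. It measured 39.7, 37.5 and 35.5 CPM in sh-Con, 36.8, 39.5 and 43.5 in sh1-*TUG1* and 31.2, 24.6 and 28.02 CPM in sh2-*TUG1*. All sh2-*TUG1* values were the lowest, with a log2(fold change) of −0.43 ± 0.09 (adjusted P = 0.00353), while sh1-*TUG1* overlapped with sh-Con (0.09, adjusted P = 0.43). *RNF167*, on the other strand of 9.14% of its exon bases, had a log2(fold change) of −0.04 in sh2-*TUG1* (adjusted P = 0.657).

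*SLC25A21* carries 2-oxoadipate from the breakdown of lysine and tryptophan. It was thinly expressed, with 67, 165 and 151 counts in the control libraries, 136, 102 and 128 in sh1-*TUG1* and 47, 81 and 60 in sh2-*TUG1*, or 2.04, 4.88 and 4.05 CPM, 3.98, 2.81 and 3.40 CPM, and 1.45, 2.42 and 1.56 CPM. Control replicate 1 lay within the range of the sh2-*TUG1* libraries. The log2(fold change) in sh2-*TUG1* was −1.02 ± 0.34 (adjusted P = 0.0345). The call was lost without sh-Con replicate 2 (−0.76, adjusted P = 0.131), sh-Con replicate 3 (adjusted P = 0.0886), sh2-*TUG1* replicate 1 (0.111) or sh2-*TUG1* replicate 3 (0.0928). The citrate carrier *SLC25A1* had a log2(fold change) of −0.07 in sh2-*TUG1* (adjusted P = 0.225) and *SLC25A35* one of 0.28 (adjusted P = 0.423), which became 0.55 without sh2-*TUG1* replicate 1 (adjusted P = 0.0471).

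Among the 7 amino acid carriers 3 fell and 1 rose in sh2-*TUG1* cells, beside 21.9% and 21.6% of all genes. *SLC25A15*, the ornithine/citrulline carrier of the urea cycle, measured 14.9, 18.7 and 15.7 CPM in sh-Con, 19.5, 20.0 and 20.8 in sh1-*TUG1* and 12.1, 10.1 and 10.7 CPM in sh2-*TUG1*. The 3 groups did not overlap, with sh1-*TUG1* above and sh2-*TUG1* below the controls. The fall in sh2-*TUG1* was −0.59 ± 0.11 (adjusted P = 0.00275), and the value in sh1-*TUG1*, 0.29 ± 0.09, was not called (adjusted P = 0.0521) but was without sh-Con replicate 2 (0.38, adjusted P = 0.0142).

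*SLC25A12* (aralar), which sends aspartate out of mitochondria for glutamate, measured 11.99, 11.2 and 11.9 CPM in sh-Con, 12.8, 12.3 and 15.9 in sh1-*TUG1* and 8.98, 7.66 and 7.59 CPM in sh2-*TUG1*. Again the sh2-*TUG1* libraries were below and the sh1-*TUG1* libraries above all controls, with log2(fold change) of −0.54 ± 0.11 (adjusted P = 0.00342) and 0.22 ± 0.11 (adjusted P = 0.187). *METAP1D*, on the other strand of 3.50% of its exon bases, had a log2(fold change) of −0.29 in sh2-*TUG1* (adjusted P = 0.0487). Citrin, the product of *SLC25A13* and the liver form with the same function, was not called in sh2-*TUG1* (0.10, adjusted P = 0.146) or sh1-*TUG1* (0.14, adjusted P = 0.0734).

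The basic amino acid carrier *SLC25A29*, which has 1 miR-122-5p seed match, measured 14.5, 17.1 and 18.1 CPM in sh-Con, 14.4, 16.8 and 16.5 in sh1-*TUG1* and 12.5, 13.1 and 11.6 CPM in sh2-*TUG1*. It was lower in sh2-*TUG1* (−0.42 ± 0.11, adjusted P = 0.0104) and overlapped with the controls in sh1-*TUG1* (−0.06, adjusted P = 0.735). *SLC25A44*, which carries branched-chain amino acids, rose in sh2-*TUG1* (0.30 ± 0.07, adjusted P = 0.00912), and in sh1-*TUG1* its value of 0.19 was not called (adjusted P = 0.0628). The glutamate carrier *SLC25A22* was not called in either line (−0.23, adjusted P = 0.0731, and 0.06, adjusted P = 0.558), but was lower in sh1-*TUG1* without sh-Con replicate 2 (−0.32, adjusted P = 0.0138).

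*SLC25A47*, a carrier found mainly in liver, lies near *SLC25A29* on chromosome 14 (chr14:100323337-100330378 and chr14:100291111-100306547). It had the largest fall of all carriers in sh2-*TUG1*, with 89, 96 and 80 counts in the sh-Con libraries, 62, 73 and 71 in sh1-*TUG1* and 22, 33 and 47 in sh2-*TUG1*. In CPM these were 2.72, 2.84 and 2.14, then 1.82, 2.01 and 1.88, and 0.677, 0.988 and 1.22. The 3 groups did not overlap. The fall was −1.41 ± 0.27 in sh2-*TUG1* (adjusted P = 0.00248) and the value −0.43 ± 0.20 in sh1-*TUG1* was not called (adjusted P = 0.158).

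*SLC25A20* brings acylcarnitines into the matrix for fatty acid oxidation. It measured 14.0, 15.3 and 15.9 CPM in sh-Con, 18.3, 17.1 and 16.6 in sh1-*TUG1* and 20.6, 20.1 and 21.1 CPM in sh2-*TUG1*. The 3 groups were ordered without overlap. The rise in sh2-*TUG1* was 0.45 ± 0.08 (adjusted P = 0.00162), and the value of 0.20 ± 0.08 in sh1-*TUG1* was not called (adjusted P = 0.113).

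The 9 carriers of cofactors and nucleotides held 3 rises and 0 falls in sh2-*TUG1* cells, beside 21.6% and 21.9% of all genes, with a median of 0.20. *SLC25A42*, which brings coenzyme A into the matrix, measured 17.6, 16.6 and 19.8 CPM in sh-Con, 21.6, 21.9 and 20.2 in sh1-*TUG1* and 26.2, 27.6 and 24.2 CPM in sh2-*TUG1*. It showed the largest called rise among the carriers in this line (0.53 ± 0.09, adjusted P = 0.00109), and in sh1-*TUG1* its 0.24 ± 0.08 was not called (adjusted P = 0.068). The pyrimidine nucleotide carrier *SLC25A36* measured 132, 150 and 144 CPM in sh-Con, 155, 152 and 144 in sh1-*TUG1* and 194, 196 and 192 CPM in sh2-*TUG1*. Only the sh2-*TUG1* libraries stood apart, with a rise of 0.45 ± 0.05 (adjusted P = 1.93e-04), while *SLC25A33* was not called in this line (0.11, adjusted P = 0.248) except without sh2-*TUG1* replicate 3 (0.19, adjusted P = 0.0293).

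Another 5 cofactor carriers were not called in either comparison with sh-Con. In sh2-*TUG1* their log2(fold change) was 0.21 for the S-adenosylmethionine carrier *SLC25A26* (adjusted P = 0.0645), 0.20 for the folate and FAD carrier *SLC25A32*, 0.05 for the peroxisomal carrier *SLC25A17*, 0.02 for the NAD carrier *SLC25A51* and −0.18 for *SLC25A16*, which is linked to coenzyme A. *SLC25A32* shares 69.7% of its exon bases on the same strand with *AC012213.5*, and 21.1% of the 50-base windows of *SLC25A51* occur in *SLC25A52*, so the counts of both are uncertain.

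**Figure D3:**
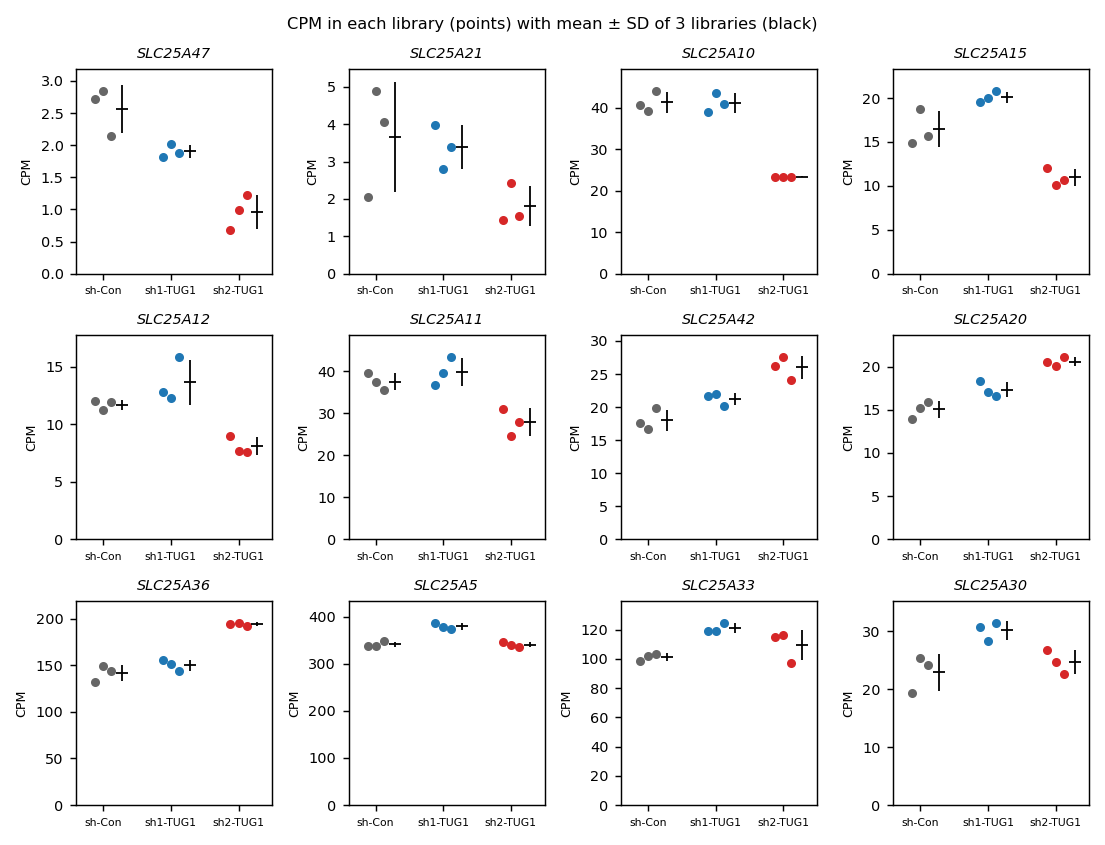
Each panel is 1 carrier gene, with CPM of each library as points on a linear axis from 0, grouped as sh-Con, sh1-*TUG1* and sh2-*TUG1*, and the mean ± SD of 3 libraries in black. The first 6 panels, read by row, hold the members with the largest called falls in sh2-*TUG1*, where only *SLC25A21* overlaps with sh-Con, and *SLC25A10* lies near 23.4 CPM in all 3 sh2-*TUG1* libraries.

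The calcium-regulated ATP-Mg/phosphate carriers, which adjust the adenine nucleotide pool of the matrix, held 1 rise and 1 fall in sh2-*TUG1* cells. Of all genes, 21.6% were called higher and 21.9% lower there. *SLC25A25* rose by 0.29 ± 0.07 (adjusted P = 0.0114), *SLC25A23* fell by 0.23 on the log2 scale (SE 0.08, adjusted P = 0.0371) and *SLC25A24* was not called (−0.13, adjusted P = 0.151). In sh1-*TUG1* none of these 3 was called, with values of 0.19, 0.13 and −0.22 in the same order. *SLC25A23* passed the threshold in 7 of the 13 alternatives and *SLC25A25* in all 13. Without sh-Con replicate 1 the fall of *SLC25A23* in sh2-*TUG1* was −0.15 (adjusted P = 0.0808), and in sh1-*TUG1* the gene was called higher (0.21, adjusted P = 0.0193).

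*MTCH1*, whose product sits in the outer membrane, measured 142, 145 and 156 CPM in sh-Con, 157, 152 and 154 in sh1-*TUG1* and 169, 170 and 157 CPM in sh2-*TUG1*. It rose in sh2-*TUG1* by 0.16 ± 0.06 (adjusted P = 0.0408), with a value of 0.06 in sh1-*TUG1* (adjusted P = 0.393). *MTCH2*, which inserts proteins into the outer membrane, measured 120, 126 and 132 CPM in sh-Con, 139, 127 and 135 in sh1-*TUG1* and 126, 124 and 110 CPM in sh2-*TUG1* and overlapped with sh-Con in both lines (0.08, adjusted P = 0.317, and −0.08, adjusted P = 0.372). *SLC25A46*, an outer membrane protein that acts on mitochondrial shape, rose in sh2-*TUG1* (0.21 ± 0.07, adjusted P = 0.0385). *MTCH1* and *SLC25A46* each passed the threshold in 7 of 13 alternatives.

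To test the difference between the knockdown lines itself, sh2-*TUG1* was compared with sh1-*TUG1* in a fit of all 9 libraries. The carriers held 5 genes higher and 13 lower in sh2-*TUG1*, 23 were not called, and 5 were DEGs, all lower. Of the 12854 genes that both tables hold, 21% were called higher, 21.7% were called lower and 10.6% were DEGs, 2.56% higher and 8.04% lower. The median was −0.03 over the carriers and −7e-04 over all genes, and libraries of the 2 lines did not overlap in 25 carriers and in 55.4% of all genes. The 5 DEGs were *SLC25A47* (−0.98 ± 0.24, adjusted P = 0.00726), *SLC25A21* (−0.91 ± 0.31, adjusted P = 0.0351), *SLC25A15* (−0.87 ± 0.10, adjusted P = 3.58e-05), *SLC25A10* (−0.81 ± 0.06, adjusted P = 1.64e-06) and *SLC25A12* (−0.76 ± 0.12, adjusted P = 3.37e-04). In *SLC25A15* and *SLC25A12* the 2 lines lay on opposite sides of the control libraries.

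The carboxylate group showed 4 of its 5 genes lower for sh2-*TUG1* than for sh1-*TUG1*, beside 21.7% of all genes. Among them were the citrate carrier *SLC25A1* (−0.16 ± 0.04, adjusted P = 0.00911) and *SLC25A11* (−0.52 ± 0.09, adjusted P = 6.63e-04). Of the 7 genes of the ADP/ATP and phosphate group 4 were lower, beside the same 21.7% of all genes. They were *SLC25A23* with −0.36 ± 0.07 (adjusted P = 0.00182) and the genes *SLC25A4*, *SLC25A5* and *SLC25A3* given above. *SLC25A36* (0.37 ± 0.05, adjusted P = 1.27e-04), *SLC25A22*, *SLC25A42*, *SLC25A20* and *SLC25A46* were higher. In 15 of the 41 carriers no comparison gave a call, a count that was not made over all genes.

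Carriers work with enzymes on either side of the inner membrane, and 16 such partner enzymes were counted as a list. In sh1-*TUG1* 1 was higher (citrate synthase *CS*, 0.20 ± 0.04, adjusted P = 0.0057) and 1 lower (cytosolic aspartate aminotransferase *GOT1*, −0.29 ± 0.04, adjusted P = 8.14e-04), beside 12.5% and 12.3% of all genes. In sh2-*TUG1* 0 were higher and 9 lower, beside 21.6% and 21.9% of all genes. The largest fall was in *GPD1*, the cytosolic enzyme of the glycerol phosphate shuttle (−1.33 ± 0.07 in sh2-*TUG1*, adjusted P = 1.51e-06, and −0.15 in sh1-*TUG1*, adjusted P = 0.111). The list median in sh2-*TUG1* was −0.15, beside −0.0048 over all genes. Picked out after their values were seen, the enzymes of the malate-aspartate shuttle, in which *SLC25A11* and *SLC25A12* take part, were all among the 9: *GOT1* (−0.17), *GOT2* (−0.13), *MDH1* (−0.35) and *MDH2* (−0.25). Of these, *GOT2*, *MDH1* and *MDH2* were not called in sh1-*TUG1*, with values of 0.12, −0.07 and −0.07, and each differed between the lines, lower with sh2-*TUG1* (−0.24, −0.28 and −0.18), while *GOT1* was higher (0.13). Not every shuttle carrier fell. *SLC25A13*, at 29.5 CPM per kb in sh-Con against 2.27 for *SLC25A12*, was not called in sh2-*TUG1* (0.10, adjusted P = 0.146).

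**Figure D4:**
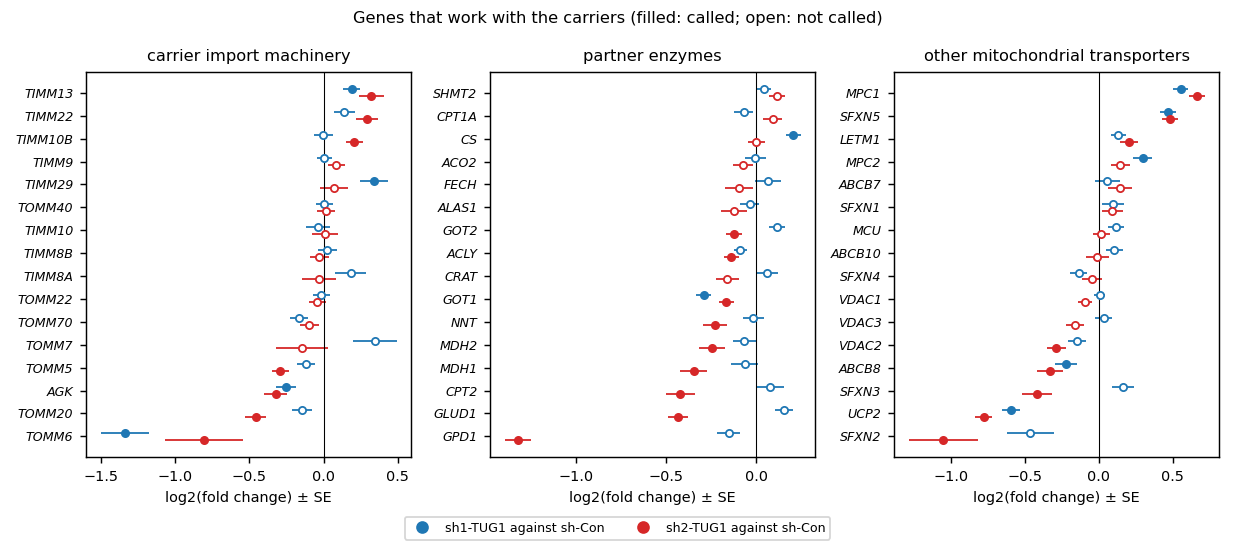
The x axes give log2(fold change) with SE against sh-Con for 16 genes of carrier import, 16 partner enzymes and 16 other mitochondrial transporters, in blue for sh1-*TUG1* and red for sh2-*TUG1*, filled where called. Among the partner enzymes 9 red points are filled, all left of 0, with *GPD1* furthest left, and *TOMM6* and *SFXN2* lie furthest left in the outer panels.

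The genes that bring carriers into mitochondria were counted as a list of 16. After sh1-*TUG1* it held 2 rises and 2 falls, beside 12.5% and 12.3% of all genes, and after sh2-*TUG1* 3 rises and 4 falls, beside 21.6% and 21.9%. The list medians were 0.001 and −0.03. *TOMM6*, a small subunit of the TOM pore, fell most in both lines (−1.34 ± 0.16, adjusted P = 3.67e-04, and −0.81 ± 0.27, adjusted P = 0.0331). The largest called rises were in *TIMM29*, a subunit of the TIM22 insertase, in sh1-*TUG1* (0.34 ± 0.10, adjusted P = 0.028) and in *TIMM13*, a small TIM chaperone, in sh2-*TUG1* (0.32 ± 0.09, adjusted P = 0.0134).

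Among 16 mitochondrial transporters outside the rule, sh1-*TUG1* cells had 3 higher and 2 lower and sh2-*TUG1* cells 3 higher and 5 lower, where 12.5% and 12.3% and then 21.6% and 21.9% of all genes were called. *MPC1*, a subunit of the mitochondrial pyruvate carrier, rose most in both lines (0.55 ± 0.05, adjusted P = 9.78e-05, and 0.66 ± 0.05, adjusted P = 1.38e-05). The largest falls were in *UCP2*, an uncoupling protein of the carrier family, in sh1-*TUG1* (−0.59 ± 0.06, adjusted P = 1.4e-04) and in *SFXN2*, a sideroflexin, in sh2-*TUG1* (−1.05 ± 0.23, adjusted P = 0.00538). *UCP2* was a DEG in both lines, with −0.78 ± 0.06 in sh2-*TUG1* (adjusted P = 1e-05), and is not in the counts of carrier genes above.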

How the data were processed

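HepG2 libraries (n = 3 a group) were assigned to groups by their sample labels. For each knockdown line the authors deposited read counts per gene, without normalization. The tables also hold FPKM values of the authors, a false discovery rate (an adjusted p-value) and a log2 fold change of the authors' own comparison, and none of these deposited columns was used. Every column of a library had a matching label. The submitters' processing notes name HISAT2, StringTie and GRCh38 without versions, and the counting tool and its use of strand are not given in the sources used here. Libraries were made with a NEBNext Ultra RNA kit.

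The main test was the quasi-likelihood test of edgeR 4.0.16 under R 4.3.3, with TMM factors and filterByExpr, over all genes of a table, with Benjamini–Hochberg adjustment. The comparisons with sh-Con used 6 libraries each, and the comparison of the knockdown lines used all 9. The filter removed no carrier gene. CPM of single libraries used TMM factors of all 9 libraries, while fold changes came from the fit of each comparison. DESeq2 1.42.0 was an alternative, and limma 3.58.1 was loaded by edgeR. The test was checked on simulated data.

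With totals of 33054291 to 39393293 counts, libraries of a group differed by more than read sampling (chi-squared per degree of freedom 6.41 to 25.8 over 10772 genes). Exon lengths, overlaps and 3′ UTRs came from GENCODE 29, and miRNA and promoter sequences from RefSeq (GRCh38.p14), where 35 of 41 carrier genes were matched. All 41 carriers entered the counts, and the values of 1 carrier and some sequences are not reported here. Values of every library were to be given for genes called in both lines, DEGs, ADP/ATP and phosphate carriers, *MTCH1* and *MTCH2*, and those of *SLC25A11*, *SLC25A20*, *SLC25A29*, *SLC25A30*, *SLC25A33*, *SLC25A35*, *SLC25A36* and *SLC25A42* were added after their values were seen. Of the other lists, the called genes with the largest rise and fall in each line were named, besides the enzymes named as picked later. The carrier genes, gene lists and tests were chosen with earlier results of these data known. No table of protein sequences was used here.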

Additional observations from a re-analysis of the deposited data

Results flagged for a closer look

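The results below were picked out because the effect of the knockdown differed between the 2 lines, tested as sh2-*TUG1* against sh1-*TUG1* with edgeR in a fit of all 9 libraries. They hold 5 of the 41 carriers called higher and 13 called lower, beside 21% and 21.7% of all 12854 genes. Among all genes 2.56% were DEGs called higher and 8.04% were DEGs called lower. Both hairpins target the same RNA, and the cause of the differences was not tested. Lower in sh2-*TUG1* by more than 1.5-fold were *SLC25A47* (log2(fold change) −0.98), *SLC25A21* (−0.91), *SLC25A15* (−0.87), *SLC25A10* (−0.81) and *SLC25A12* (−0.76). Lower by less were *SLC25A11* (−0.52), *SLC25A23* (−0.36), *SLC25A29* (−0.36), *SLC25A30* (−0.29), *SLC25A4* (−0.23), *SLC25A1* (−0.16), *SLC25A5* (−0.16) and *SLC25A3* (−0.15). Higher were *SLC25A36* (0.37), *SLC25A22* (0.29), *SLC25A42* (0.29), *SLC25A20* (0.25) and *SLC25A46* (0.18). Of these 18 calls, 11 passed the threshold under all 15 alternatives and 7 were lost under at least 1. *SLC25A21* was lost without sh1-*TUG1* replicate 1 (adjusted P = 0.109), sh1-*TUG1* replicate 3 (0.0759), sh2-*TUG1* replicate 1 (0.112) or sh2-*TUG1* replicate 3 (0.102).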

How the results depend on the processing

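No carrier gene that was called changed direction in the fits run. The shares of all genes called under these other settings were not counted, so the counts below cannot be set against genes in general. With library size alone in place of TMM, 11 carriers were higher in sh1-*TUG1* than in sh-Con and 3 were higher in sh2-*TUG1* than in sh1-*TUG1*. With 1 fit of all 9 libraries, 2 carriers were lower in sh1-*TUG1*. In a test against the fold change of 1.5 itself, 2 carriers passed in sh2-*TUG1* against sh-Con and 1 in sh2-*TUG1* against sh1-*TUG1*. Leaving out each library in turn gave 1 to 9 carriers higher, 0 to 1 lower and 0 DEGs in sh1-*TUG1*, 6 to 11 higher, 6 to 8 lower and 2 to 4 DEGs in sh2-*TUG1*, and 2 to 6 higher, 10 to 15 lower and 4 to 5 DEGs between the lines. The count of 7 higher in sh1-*TUG1* became 3 without sh-Con replicate 2, 2 without sh1-*TUG1* replicate 1, 3 without sh1-*TUG1* replicate 2 and 1 without sh1-*TUG1* replicate 3, and 1 carrier was lower without sh-Con replicate 1, sh-Con replicate 2 or sh1-*TUG1* replicate 1. The count of 4 DEGs in sh2-*TUG1* became 2 without sh-Con replicate 2 or sh2-*TUG1* replicate 3, and the count of 5 higher between the lines became 3 without sh1-*TUG1* replicate 2, 2 without sh1-*TUG1* replicate 3 and 3 without sh2-*TUG1* replicate 2. Libraries with the same replicate number did not deviate together (correlations of −0.194 to 0.05), so the number is no pairing. With it as a replicate block, 6 carriers were higher, 0 lower and 0 DEGs in sh1-*TUG1*, 6 were higher, 7 lower and 3 DEGs in sh2-*TUG1*, and 4 were higher, 11 lower and 5 DEGs between the lines. RLE size factors, no filter and a filter of 1 CPM in 3 libraries changed no call of a carrier gene. *SLC25A47* and *SLC25A21*, with 22 to 165 counts a library, are the called genes whose depth limits their precision most.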
